A study of Mus musculus with 6 samples.

Results

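The neural progenitor and immature neuron genes described here are 34 genes of the 35523 measured in the forebrain of *Slc13a4*+/- and wild-type mice. They were chosen by gene symbol, as 8 progenitor genes, 16 neuroblast genes and 10 genes of neurite outgrowth, and all 34 were found and had enough counts to be tested. RNA-Seq was performed on the whole forebrain of 3 *Slc13a4*+/- mice (Nas2Del_Het_1024, Nas2Del_Het_1025 and Nas2Del_Het_1027) and 3 wild-type mice (Nas2Del_WT_1016, Nas2Del_WT_1018 and Nas2Del_WT_1026), all C57BL/6 and all at postnatal day 20 (P20). The *Slc13a4*+/- mice carry the Nas2Del allele of the sulfate transporter gene, which is expressed mainly in the choroid plexus and pia mater, in the heterozygous state, and no drug or other treatment is named for either genotype. The comparison asks which genes depend on sulfate supply during postnatal brain development.

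Neural stem cells of the postnatal forebrain line the lateral ventricle and lie in the dentate gyrus of the hippocampus. They hold the intermediate filaments nestin and vimentin and the transcription factor SOX2, and Notch signalling through RBPJ and its targets *Hes1* and *Hes5* helps to keep them in a stem cell state. As their daughters commit to a neuronal fate they switch on proneural factors such as *Neurog2*, then doublecortin and other genes of migrating neuroblasts, and those from the ventricle travel to the olfactory bulb. Young neurons then build axons with a set of tubulins, stathmins, collapsin response mediator proteins and growth cone proteins. Many of these genes are not confined to newborn cells: vimentin is also made by astrocytes, ependyma and vessels, nestin by endothelium and pericytes, and several outgrowth genes by mature neurons. In whole tissue, fewer cells of a type and less RNA per cell cannot be told apart.

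Start-site windows are printed for the 3 members past an unadjusted p under 0.05 for which a window was at hand, and for *Hes5* as a Notch target. Each holds 300 bases of the plus strand of GRCm38.p6, 5′ to 3′, credited to RefSeq: *Nes* at chr3:87970843-87971142, *Vim* at chr2:13574061-13574360, *Neurog2* at chr3:127632886-127633185 and *Hes5* at chr4:154960673-154960972. Capitals mark 3 motifs searched on both strands, the RBPJ word GTGGGAA, the SOX core ACAAT and the TATA word TATAAA.
Nes: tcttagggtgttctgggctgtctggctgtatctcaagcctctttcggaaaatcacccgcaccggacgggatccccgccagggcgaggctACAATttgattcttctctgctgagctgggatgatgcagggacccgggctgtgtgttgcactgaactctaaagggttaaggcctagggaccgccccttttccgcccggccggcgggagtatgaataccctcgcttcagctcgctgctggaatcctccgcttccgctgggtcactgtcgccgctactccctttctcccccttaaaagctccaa
Vim: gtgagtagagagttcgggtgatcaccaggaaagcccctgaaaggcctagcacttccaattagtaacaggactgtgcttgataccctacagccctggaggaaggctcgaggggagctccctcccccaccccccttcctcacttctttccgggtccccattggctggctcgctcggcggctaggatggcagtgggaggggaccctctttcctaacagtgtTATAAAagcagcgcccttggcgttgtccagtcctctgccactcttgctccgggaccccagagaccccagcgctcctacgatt
Neurog2: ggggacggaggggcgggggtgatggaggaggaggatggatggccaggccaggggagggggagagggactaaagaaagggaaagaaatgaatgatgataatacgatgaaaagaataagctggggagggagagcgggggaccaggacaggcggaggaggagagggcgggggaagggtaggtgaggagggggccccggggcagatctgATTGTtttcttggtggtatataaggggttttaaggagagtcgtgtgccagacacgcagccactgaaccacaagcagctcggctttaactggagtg
Hes5: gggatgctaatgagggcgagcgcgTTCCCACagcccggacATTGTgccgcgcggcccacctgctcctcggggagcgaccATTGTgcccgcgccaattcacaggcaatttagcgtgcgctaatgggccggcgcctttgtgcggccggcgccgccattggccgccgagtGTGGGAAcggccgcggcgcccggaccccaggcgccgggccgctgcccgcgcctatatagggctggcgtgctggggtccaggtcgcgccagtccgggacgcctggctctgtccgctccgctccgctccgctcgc
The 21 members with a window had 29 windows, as some have more than 1. The RBPJ word was found in 6.38% of the 32851 windows of the table and in 1 of the 29 member windows, that of *Hes5*, which held it 2 times. The SOX core was found in 31% of all windows and in 9 of the 29 member windows (8 of the 21 members, *Nes* and *Neurog2* among them). The TATA word was found in 13.6% of all windows and in 6 of the 29 member windows (5 of the 21 members), and in *Vim* it began at base 219 of the window. The GC box GGGCGG was searched but not capitalised, and was found in 35.7% of all windows and in 16 of the 29 member windows (15 of the 21 members). No marked word overlaps another in the printed windows. These are matches of letters only.

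Every member was counted in every mouse. The summed estimated counts were 69260309 to 78070813 in *Slc13a4*+/- mice and 60340337 to 80410582 in wild-type mice, and the least counted member in any mouse was *Neurog2* with 41. *Slc13a4* itself had 5.41 to 6.57 CPM (counts per 1000000 counts of a mouse, TMM scaled) in the *Slc13a4*+/- mice, against 8.23 to 10.4 CPM in the wild-type mice (log2 fold change -0.67, SE 0.11, adjusted p 0.499 by edgeR and 0.0024 by DESeq2). The forebrain label was matched by excitatory neuron markers, which summed to 1726 to 1789 CPM in *Slc13a4*+/- and 1635 to 1951 CPM in wild-type mice. Nas2Del_WT_1016 had 105 CPM of the Y-linked *Ddx3y* and the other mice at most 0.03. By this gene Nas2Del_WT_1016 was male and the other mice female, so sex was not balanced between the genotypes. No source used here names the sex of the animals. Values without Nas2Del_WT_1016 are printed below, as are those without Nas2Del_WT_1026, which changed the number of calls the most. Each mouse is a separate animal, and p-values measure the spread between these animals only.

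Levels of the members, compared per length as TPM (transcripts per 1000000), spanned from 938 for *Stmn1*, a stathmin that binds free tubulin, to 0.425 for *Draxin*, a secreted axon guidance protein. A mean of 100 TPM or more was reached by 7 members, all of them outgrowth genes. Next to *Stmn1* stood the neuronal tubulin *Tubb3* at 538 TPM, then the growth cone protein *Gap43* at 363, the actin regulator *Marcksl1* at 307, the stathmin *Stmn2* at 266, the adhesion molecule *Ncam1* at 190 and the tubulin *Tubb2b* at 168. Another 18 members lay from 10 to under 100 TPM. The neuroblast genes were led by the neuronal RNA-binding proteins *Elavl3* at 85.9 TPM and *Elavl4* at 71.5 TPM, which mature neurons keep making. The progenitor genes were led by *Vim* at 48.5 TPM, *Sox2* at 35.6 TPM and *Prom1* at 27.2 TPM.

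Below 10 TPM lay 9 members, *Dcx* (doublecortin, 9.68 TPM), *Pax6* (6.15 TPM), *Nes* (nestin, 5.94 TPM), the interneuron factor *Dlx5* (3.85 TPM), *Igfbpl1* (3.34 TPM), the zinc finger factor *Insm1* (2.22 TPM), *Dlx2* (2.01 TPM), *Neurog2* (0.847 TPM) and *Draxin*. Neighbours in this order had overlapping ranges over the 6 mice in 17 of 33 pairs. The first 5 members did not overlap with the next, *Ncam1* and *Tubb2b* overlapped, and all neighbours from *Sox4* (18.7 TPM) down to *Dcx* overlapped.

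**Figure D1:**
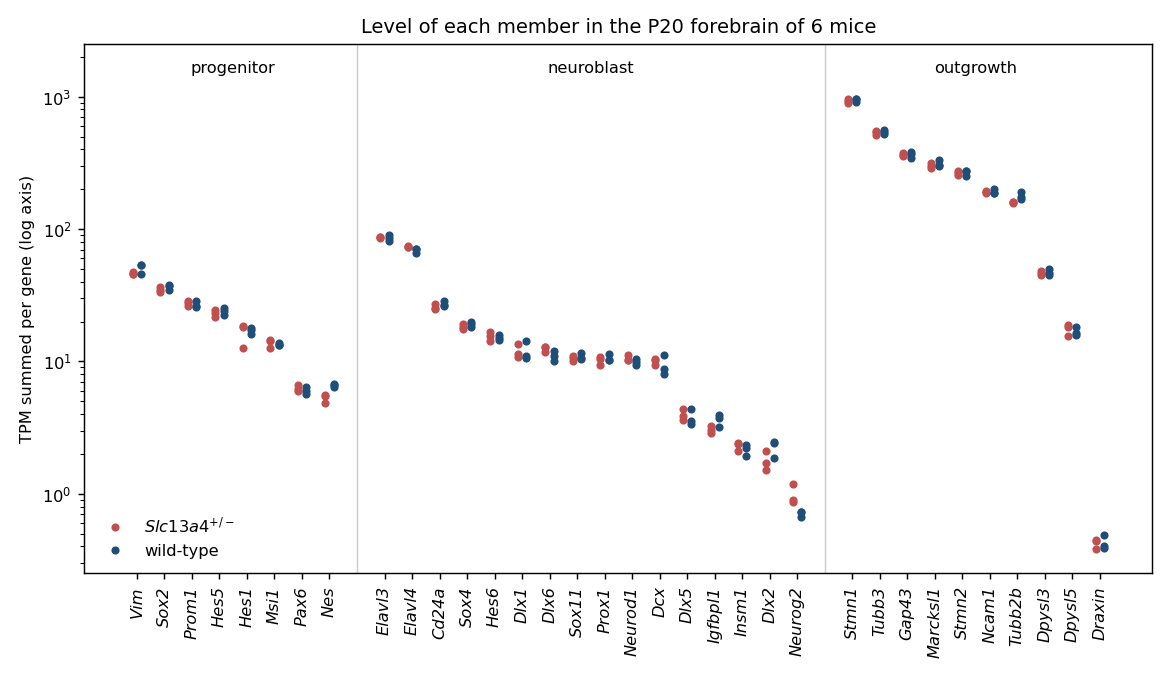
Level of each member in TPM summed per gene (log axis) in the 3 *Slc13a4*+/- mice (red, left) and the 3 wild-type mice (blue, right), with 1 point a mouse and members ordered by mean level within their class. The 7 members at 100 TPM or more are outgrowth genes, and *Neurog2* and *Draxin* are the lowest.

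Between the genotypes, the edgeR quasi-likelihood test called none of the 34 members at an adjusted p under 0.1, where it called 0.00585% of all 17096 genes tested. At an unadjusted p under 0.05, 3 members were lower in *Slc13a4*+/- mice (*Nes*, *Vim* and *Tubb2b*), against 4.17% of all genes tested, and 1 was higher (*Neurog2*), against 4.98%. The DESeq2 Wald test with transcript-length offsets called *Nes* and *Tubb2b* lower at an adjusted p under 0.1, where 0.187% of 17659 genes were called lower, and no member higher, where 0.3% were. A log2 fold change below 0 was found for 26 of the 34 members, against 52.2% of all genes tested. The members' median was -0.05, against 0.00 for all genes, whose quartiles were -0.06 and 0.07. On CPM, in 5 members all 3 *Slc13a4*+/- mice lay below all 3 wild-type mice, against 7.7% of all genes, and in 1 member all lay above, against 7.26%. On TPM these were 2 members below (*Nes* and *Tubb2b*), against 4.07% of all genes, and 2 above (*Neurog2* and *Elavl4*), against 10.6%.

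**Figure D2:**
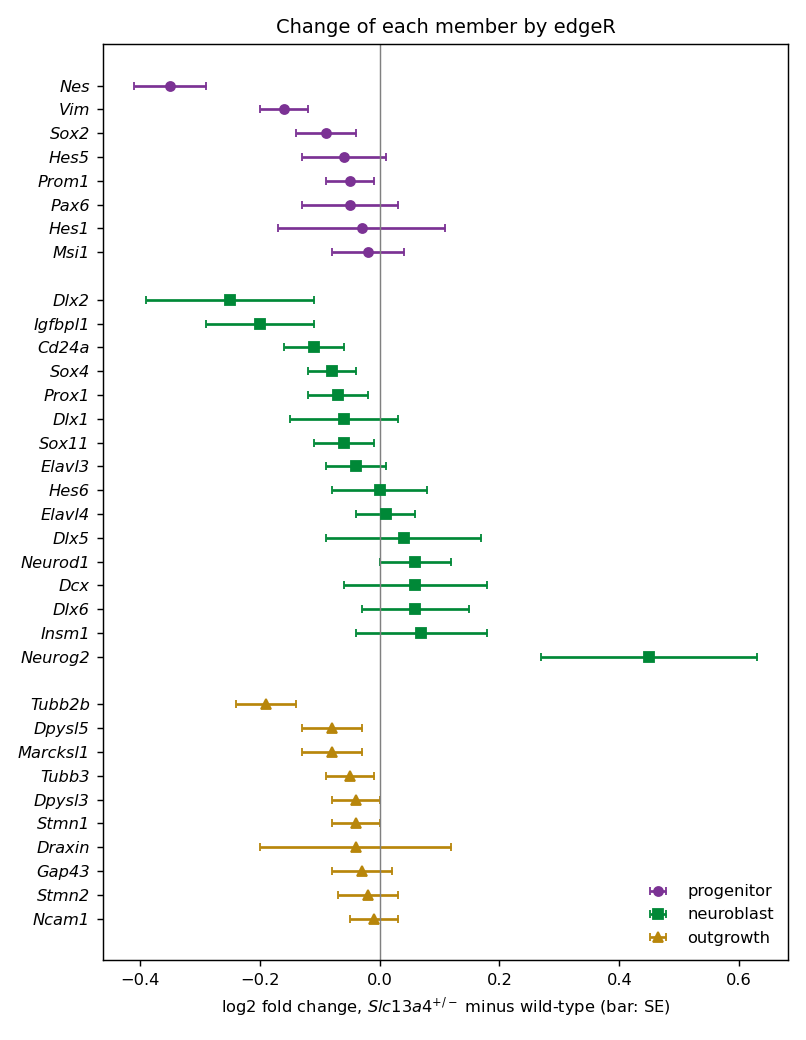
The log2 fold change of each member, *Slc13a4*+/- minus wild-type, by edgeR, with its standard error as the bar, grouped by class. All 8 progenitor and all 10 outgrowth members lie below 0, most by less than 0.10 (with length offsets *Pax6*, *Prom1* and *Dpysl5* lie above 0), while 8 neuroblast members lie on either side.

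Among the progenitor genes the largest difference was in *Nes* (ENSMUSG00000004891.16, chromosome 3, 87971078 to 87980451, plus strand, GRCm38), which encodes the filament protein nestin. *Nes* had 13.6, 15.2 and 15.4 CPM in the *Slc13a4*+/- mice, against 18.4, 19.1 and 19.0 CPM in the wild-type mice. All 3 *Slc13a4*+/- mice were below all wild-type mice, with a gap of 2.98 CPM between the groups. The means were 14.7 ± 0.98 CPM in *Slc13a4*+/- and 18.9 ± 0.38 CPM in wild-type mice (SD, n = 3 each). This is a log2 fold change of -0.35 (SE 0.06). The adjusted p was 0.499 by edgeR and 0.0242 by DESeq2. When 1 mouse at a time was left out, the DESeq2 adjusted p of *Nes* ran between 0.0202 and 0.171: it passed 0.1 without Nas2Del_Het_1025, Nas2Del_Het_1027 or Nas2Del_WT_1026 and missed it without Nas2Del_Het_1024 (0.108), Nas2Del_WT_1016 (0.115) or Nas2Del_WT_1018 (0.171). The edgeR log2 fold change stayed between -0.39 and -0.30.

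The transcript Nes-201, with 4 exons, carried 92.2% to 96.8% of the gene's TPM in *Slc13a4*+/- mice and 89.5% to 99.5% in wild-type mice. Its TPM was 4.63 to 5.43 in the *Slc13a4*+/- mice, below the 5.72 to 6.61 of the wild-type mice. None of its 31-base words is shared with another gene's transcript.

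*Vim* (ENSMUSG00000026728.9, chromosome 2, 13573927 to 13582826, plus strand), the filament that pairs with nestin in radial glia, also had no overlap on CPM. Its level was 33.25, 33.27 and 31.40 CPM in the *Slc13a4*+/- mice, against 38.14, 35.98 and 35.03 CPM in the wild-type mice. The difference was smaller than for *Nes*, at -0.16 on the log2 scale (SE 0.04), and its adjusted p was 0.499 by edgeR and 0.688 by DESeq2. Without Nas2Del_WT_1026, DESeq2 gave *Vim* -0.24 with an adjusted p of 0.00861, and edgeR gave -0.18 with an adjusted p of 0.116. Without Nas2Del_WT_1016 edgeR gave *Vim* -0.12 with an adjusted p of 0.814. A retained-intron transcript, Vim-203, took 25.3% to 29.5% of the gene's TPM in *Slc13a4*+/- mice and 23.7% to 35.3% in wild-type mice, so the share overlapped. On TPM the gene itself overlapped, at 45.6, 47.7 and 45.5 TPM in the *Slc13a4*+/- mice, against 53.3, 53.5 and 45.4 TPM in the wild-type mice.

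The other 6 progenitor genes overlapped between the genotypes. *Sox2*, the transcription factor that maintains neural stem cells, had 30.16 to 32.85 CPM in the *Slc13a4*+/- mice (31.7 ± 1.37, SD, n = 3), against 32.16 to 34.91 CPM in the wild-type mice (33.7 ± 1.40, SD, n = 3). The log2 difference of -0.09 (SE 0.05, adjusted p 0.602 in edgeR) did not pass. *Prom1*, which encodes the membrane protein prominin, had 37.9, 38.2 and 35.6 CPM in the *Slc13a4*+/- mice, against 38.7, 38.0 and 38.9 CPM in the wild-type mice, a log2 fold change of -0.05 (SE 0.04, adjusted p 0.714).

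The Notch targets *Hes5* (-0.06, SE 0.07) and *Hes1* (-0.03, SE 0.14), the radial glial factor *Pax6* (-0.05, SE 0.08) and the RNA-binding protein *Msi1* (-0.02, SE 0.06) lay within a standard error of 0. For *Hes1* the *Slc13a4*+/- mice themselves were spread, at 10.2, 7.09 and 10.5 CPM, against 9.73, 8.80 and 9.80 CPM in the wild-type mice. With transcript-length offsets *Pax6* and *Prom1* turned to 0.03 and 0.01 in DESeq2. Summed over the 8 genes, the progenitor class had 152 to 157 CPM in the *Slc13a4*+/- mice, against 167 to 168 CPM in the wild-type mice, without overlap on CPM. *Nes* and *Vim* were the only genes of the class without overlap on CPM, and *Nes* the only one on TPM. How often such sums lie apart for other genes was not tested. The median log2 fold change of the class was -0.06, and -0.06 without Nas2Del_WT_1026 and -0.04 without Nas2Del_WT_1016.

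The neuroblast genes were divided, 8 above and 8 below 0, and their median of -0.02 on the log2 scale became 0.01 without Nas2Del_WT_1026. *Neurog2* (ENSMUSG00000027967.8, chromosome 3, 127633135 to 127635631, plus strand), a proneural factor of excitatory neuron precursors, had 1.18, 0.88 and 0.86 CPM in the *Slc13a4*+/- mice, against 0.74, 0.68 and 0.73 CPM in the wild-type mice. All *Slc13a4*+/- mice were above all wild-type mice, though the gap was 0.12 CPM and Nas2Del_Het_1024 stood well above the other two. The counts behind these values were 61 to 92 in *Slc13a4*+/- mice and 41 to 57 in wild-type mice. On the log2 scale *Neurog2* differed by 0.45 (SE 0.18). The adjusted p was 0.537 by edgeR and 0.911 by DESeq2, and without Nas2Del_Het_1024 the change was 0.28.

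On CPM, but not on TPM, *Igfbpl1* and *Cd24a* were lower in every *Slc13a4*+/- mouse than in any wild-type mouse. *Igfbpl1*, an insulin-like growth factor binding protein family member found in newborn neurons, had 2.96, 3.36 and 3.30 CPM in the *Slc13a4*+/- mice, against 3.73, 3.72 and 3.59 CPM in the wild-type mice. The log2 difference of *Igfbpl1* was -0.20 (SE 0.09, adjusted p 0.563 in edgeR and 0.825 in DESeq2). *Cd24a*, a surface protein of neuroblasts that ependyma also makes, had 18.80, 19.28 and 20.44 CPM in the *Slc13a4*+/- mice, against 20.45, 22.25 and 20.53 CPM in the wild-type mice, so that the nearest mice of the genotypes were almost equal. For *Cd24a* the log2 difference was -0.11 (SE 0.05, adjusted p 0.568). Leaving out 1 mouse gave -0.35 to -0.14 for *Igfbpl1* (-0.14 in edgeR without Nas2Del_Het_1024) and -0.15 to -0.07 for *Cd24a*.

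*Dcx*, the microtubule protein of migrating neuroblasts, had 26.8, 29.7 and 29.4 CPM in the *Slc13a4*+/- mice, against 23.1, 25.6 and 33.5 CPM in the wild-type mice. A single wild-type mouse, Nas2Del_WT_1026, was above every other mouse, and the remaining wild-type mice were below every *Slc13a4*+/- mouse. *Dcx* thus differed by 0.06 on the log2 scale (SE 0.12, adjusted p 0.903). It was 0.23 without Nas2Del_WT_1026 (adjusted p 0.135 in edgeR, and 0.22 with 0.0927 in DESeq2) and -0.04 without Nas2Del_WT_1016.

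The remaining members of the class overlapped. *Elavl3* had 189, 189 and 185 CPM in the *Slc13a4*+/- mice, against 195, 180 and 204 CPM in the wild-type mice (log2 fold change -0.04, SE 0.05, adjusted p 0.822). *Elavl4* had 119, 112 and 118 CPM in the *Slc13a4*+/- mice, against 111, 115 and 121 CPM in the wild-type mice (0.01, SE 0.05, adjusted p 0.973).

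The interneuron factor *Dlx2* had 1.67, 1.81 and 2.25 CPM in the *Slc13a4*+/- mice, against 2.06, 2.27 and 2.46 CPM in the wild-type mice, and its log2 fold change of -0.25 (SE 0.14) was the largest decrease of the class in edgeR and passed no threshold. It was -0.39 in DESeq2 with length offsets, -0.15 in edgeR without Nas2Del_Het_1024 and -0.38 without Nas2Del_Het_1027. Its relatives *Dlx1* (-0.06), *Dlx5* (0.04) and *Dlx6* (0.06) were nearer 0. The factors of young neurons *Sox4* (-0.08), *Sox11* (-0.06), *Prox1* (-0.07), *Neurod1* (0.06), *Insm1* (0.07) and *Hes6* (0.00) all lay within 0.10 of 0. Summed, the class had 519 to 526 CPM in *Slc13a4*+/- mice and 515 to 563 CPM in wild-type mice, an overlap. Most of this sum was *Elavl3* and *Elavl4*, which mature neurons also make.

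**Figure D3:**
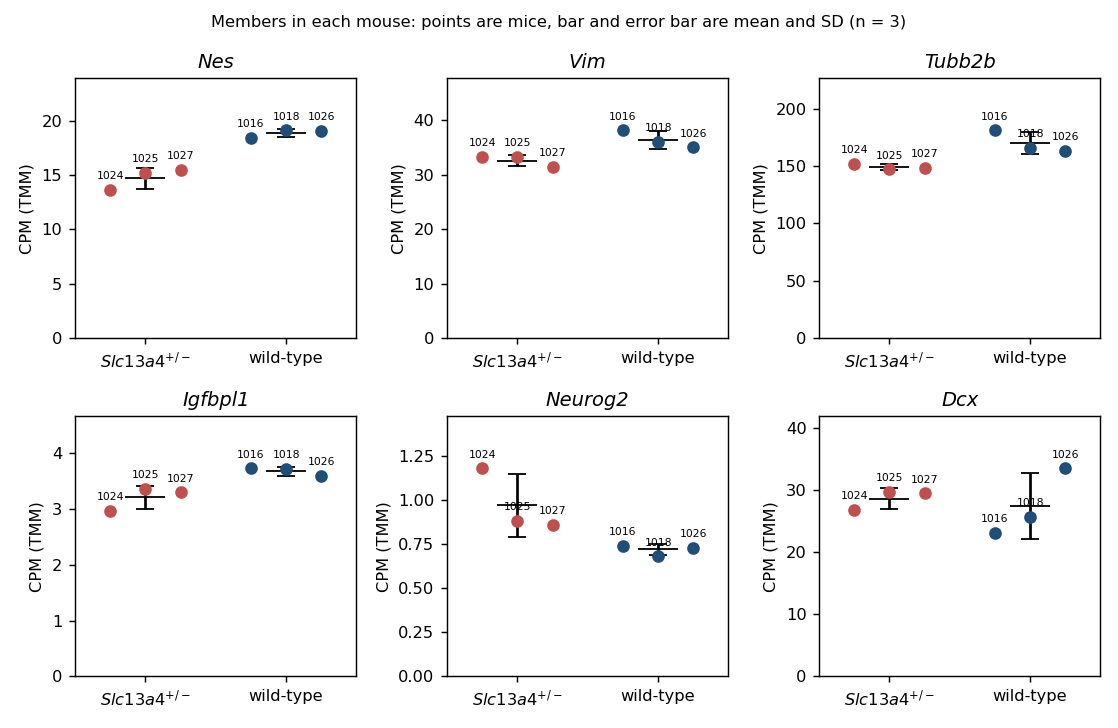
CPM (TMM scaled) in each mouse for *Nes*, *Vim*, *Tubb2b*, *Igfbpl1*, *Neurog2* and *Dcx*, with *Slc13a4*+/- mice in red on the left, wild-type mice in blue on the right, and the mean with its SD (n = 3) as bars. On this scale the genotypes do not overlap for the first 5 genes, while for *Dcx* Nas2Del_WT_1026 lies above all others.

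By edgeR without length offsets the outgrowth genes were all below 0 (with offsets *Dpysl5* was above), and their median log2 difference was -0.04 (-0.07 without Nas2Del_WT_1026 and -0.02 without Nas2Del_WT_1016). Only *Tubb2b* (ENSMUSG00000045136.6, chromosome 13, 34126748 to 34130466, minus strand), a beta-tubulin of migrating and growing neurons, had no overlap. Its level was 152, 147 and 148 CPM in the *Slc13a4*+/- mice, against 181, 166 and 163 CPM in the wild-type mice. The means were 149 ± 2.43 CPM in *Slc13a4*+/- and 170 ± 9.55 CPM in wild-type mice (SD, n = 3 each). This is a log2 fold change of -0.19 (SE 0.05), for which edgeR gave an adjusted p of 0.499 and DESeq2 one of 0.0716. Leaving out 1 mouse gave DESeq2 adjusted p values of 0.000695 to 0.523, of which the lowest, without Nas2Del_WT_1026, was the only one under 0.1. The gene shares 45.9% of the 31-base words of its main transcript with other genes, 37.5% with *Tubb2a*, so reads may be divided between them by the quantification. *Tubb2a* had 923, 926 and 995 CPM in the *Slc13a4*+/- mice, against 1000, 960 and 945 CPM in the wild-type mice (-0.03, SE 0.04). The sum of both overlapped, at 1075, 1074 and 1143 CPM in the *Slc13a4*+/- mice and 1181, 1126 and 1108 CPM in the wild-type mice. Most of this sum was *Tubb2a*, which overlapped by itself, so the sum cannot show how reads were divided between the genes.

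The remaining 9 outgrowth genes overlapped. *Stmn1* had 407, 388 and 413 CPM in the *Slc13a4*+/- mice, against 422, 422 and 400 CPM in the wild-type mice (-0.04, SE 0.04, adjusted p 0.786), and it shares 42.6% of its 31-base words, mostly with *Gm11223*. *Tubb3* had 423, 440 and 448 CPM in the *Slc13a4*+/- mice, against 469, 456 and 431 CPM in the wild-type mice (-0.05, SE 0.04, adjusted p 0.756).

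The axonal proteins *Marcksl1* and *Dpysl5* were at -0.08, and *Dpysl3*, *Draxin*, *Gap43*, *Stmn2* and *Ncam1* between -0.04 and -0.01. With transcript-length offsets *Dpysl5* turned to 0.02 in DESeq2. *Ncam1*, whose transcripts encode different isoforms of the adhesion molecule, was carried mainly by 4 transcripts, and Ncam1-201 held 37.4% to 41.1% of its TPM in *Slc13a4*+/- mice and 39.0% to 42.6% in wild-type mice. Summed, the class had 2128 to 2200 CPM in *Slc13a4*+/- mice and 2199 to 2271 CPM in wild-type mice, an overlap of 1 CPM.

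Over all members 161 transcripts were listed, of which 104 averaged at least 10 estimated counts. In 4 of these the TPM of all *Slc13a4*+/- mice was below that of all wild-type mice (Nes-201, Msi1-201, Tubb2b-201 and Ncam1-201), and in 4 it was above (transcripts of *Pax6*, *Prom1*, *Neurog2* and *Dpysl5*). Of all 55101 matched transcripts with as many counts, 3.75% lay below and 11.4% above in this way. Pax6-201 was at 0 in all *Slc13a4*+/- mice and in Nas2Del_WT_1016, with 25.1 and 55.5 estimated counts in the other wild-type mice. *Pax6* has many similar transcripts, and the division of its few counts among them varied from mouse to mouse. For 27 of the 34 members under 5% of 31-base words were shared with other genes. Exons of 8 members, *Hes5*, *Prom1*, *Sox4*, *Neurod1*, *Prox1*, *Dlx1*, *Dlx6* and *Ncam1*, overlap antisense genes, and whether the quantification used the strand is not stated.

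Genes of the same pathways that are no members were set beside them. Among 14 further stem cell genes, 10 were below 0 (median -0.03) and 4 had an unadjusted p under 0.05, all lower and without overlap. Of all genes tested, 4.17% were lower at this p in edgeR, and 7.7% lay below without overlap. *Fabp7*, the fatty acid binding protein of radial glia and young astrocytes, had 24.8, 20.5 and 25.2 CPM in the *Slc13a4*+/- mice, against 29.7, 32.5 and 29.6 CPM in the wild-type mice. The log2 difference of *Fabp7* was -0.38 (SE 0.08, adjusted p 0.499 in edgeR and 0.0179 in DESeq2), close in size to that of *Nes*. The transcription factors *Sox21* (-0.28), *Emx2* (-0.26) and *Sox3* (-0.39, SE 0.17) were the others. DESeq2 with offsets called none of these 3 (adjusted p 0.372, 0.73 and 0.911), and *Sox3* had only 0.74 to 1.22 CPM. Of 21 genes of the Notch pathway, 10 were above and 11 below 0 (median 0.00) and none had an unadjusted p under 0.05 in edgeR. DESeq2 with offsets called *Rbpj*, the DNA-binding partner of Notch, higher (0.27, adjusted p 0.0356), where edgeR gave 0.03 and the CPM ranges overlapped. Of 18 further neurogenic transcription factors 16 were tested, 5 above and 11 below 0 (median -0.04), and the zinc finger factor *Myt1* was higher in all *Slc13a4*+/- mice (0.22, SE 0.07, adjusted p 0.499 in edgeR). None of 20 further outgrowth genes passed an unadjusted p under 0.05 (7 above and 13 below 0, median -0.01). Of 12 proliferation genes 8 were below 0 (median -0.06), and *Top2a* (-0.18) and *Mcm6* (-0.17) had an unadjusted p under 0.05.

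Other cell types that express members were followed through their markers, and every marker was above 0 in every mouse. Of 8 astrocyte markers 7 were below 0 (median -0.10). At an unadjusted p under 0.05, 4 were lower, against 4.17% of all genes tested, with *S100b* at -0.23, *Gfap* at -0.17 and *Aldoc* at -0.13. The astrocyte marker *Aldh1l1* (0.07) was higher in all *Slc13a4*+/- mice, and *Slc1a2*, with the most counts, was at -0.01. DESeq2 with offsets called *S100b* lower (adjusted p 0.0441), and likewise the choroid plexus marker *Ttr* (-0.22, adjusted p 0.0921). The summed level of the 8 astrocyte markers overlapped, at 5240 to 5331 CPM in *Slc13a4*+/- mice and 5226 to 5757 CPM in wild-type mice. Most of this sum was *Slc1a2*, at 3877 to 3938 CPM in *Slc13a4*+/- mice and 3694 to 4282 CPM in wild-type mice. Endothelial markers were below 0 in 5 of 7 (median -0.10, with *Cldn5* at -0.22 and *Flt1* at -0.19), while *Tek* (0.05) and *Slco1a4* (0.07) were above 0. The endothelial markers summed to 199 to 216 CPM in the *Slc13a4*+/- mice, against 213 to 240 CPM in the wild-type mice. Pericyte and smooth muscle markers were below 0 in 5 of 7 (median -0.07, 169 to 179 CPM in *Slc13a4*+/- and 169 to 192 CPM in wild-type mice). Of these markers, *Acta2* (-0.25) was lower and *Anpep* (0.39) higher in all *Slc13a4*+/- mice, both at an unadjusted p under 0.05 in edgeR. Below 0 were also ependymal markers in 5 of 5 (median -0.13, 14.3 to 17.2 CPM in *Slc13a4*+/- and 16.5 to 18.6 CPM in wild-type mice) and choroid plexus markers in 5 of 5 (median -0.19, 385 to 449 CPM in *Slc13a4*+/- and 466 to 472 CPM in wild-type mice). Most of the choroid plexus sum was *Ttr*, at 353 to 412 CPM in *Slc13a4*+/- mice and 430 to 437 CPM in wild-type mice. *Aqp1* (-0.19) was also lower in all *Slc13a4*+/- mice, while *Folr1* (-0.26), *Kl* (-0.04) and *Clic6* (-0.02) overlapped. The part of these cells in the lower *Nes*, *Vim* and *Cd24a* was not tested.

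Olfactory bulb markers were below 0 in 5 of 5 (median -0.44, and -0.76 without Nas2Del_WT_1016). Their sum was 15.6 to 22.3 CPM in *Slc13a4*+/- mice and 18.9 to 28.5 CPM in wild-type mice, and the bulb is where *Dcx* and *Dlx* neuroblasts arrive. Each of these 5 markers overlapped between the genotypes, and only *Doc2g* (-0.54, SE 0.23) had an unadjusted p under 0.05 in edgeR. *Tbx21* (0.08 to 0.36 CPM, SE 0.54) and *Eomes* (0.59 to 1.56 CPM, SE 0.35) had few counts. Dentate granule cell markers, *Prox1* among them, were below 0 in 4 of 5 (median -0.07). The medians for markers of meningeal fibroblasts (-0.01), oligodendrocyte precursors (-0.08), inhibitory neurons (-0.03) and excitatory neurons (0.00) lay between -0.08 and 0.00. Among these markers *Olig2* (-0.20) was lower and *Col1a2* (0.09) higher in all *Slc13a4*+/- mice, both at an unadjusted p under 0.05 in edgeR. Markers of microglia were below 0 in 5 of 5 (median -0.12). The excitatory neuron median became 0.09 without Nas2Del_WT_1026. Of 11 genes of tissue handling and activity 8 were below 0 and 3 above. At an unadjusted p under 0.05, 6 were lower, against 4.17% of all genes tested. Heat shock genes were among them, with *Hspa1b* at -0.37 and *Dnajb1* at -0.23. DESeq2 with offsets called *Dnajb1* (adjusted p 0.0575) and *Hspa5* (-0.19, adjusted p 0.0955) lower. The 11 genes together summed to 5876 to 6038 CPM in the *Slc13a4*+/- mice, against 6226 to 6401 CPM in the wild-type mice. Their part in the members' values was not tested.

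**Figure D4:**
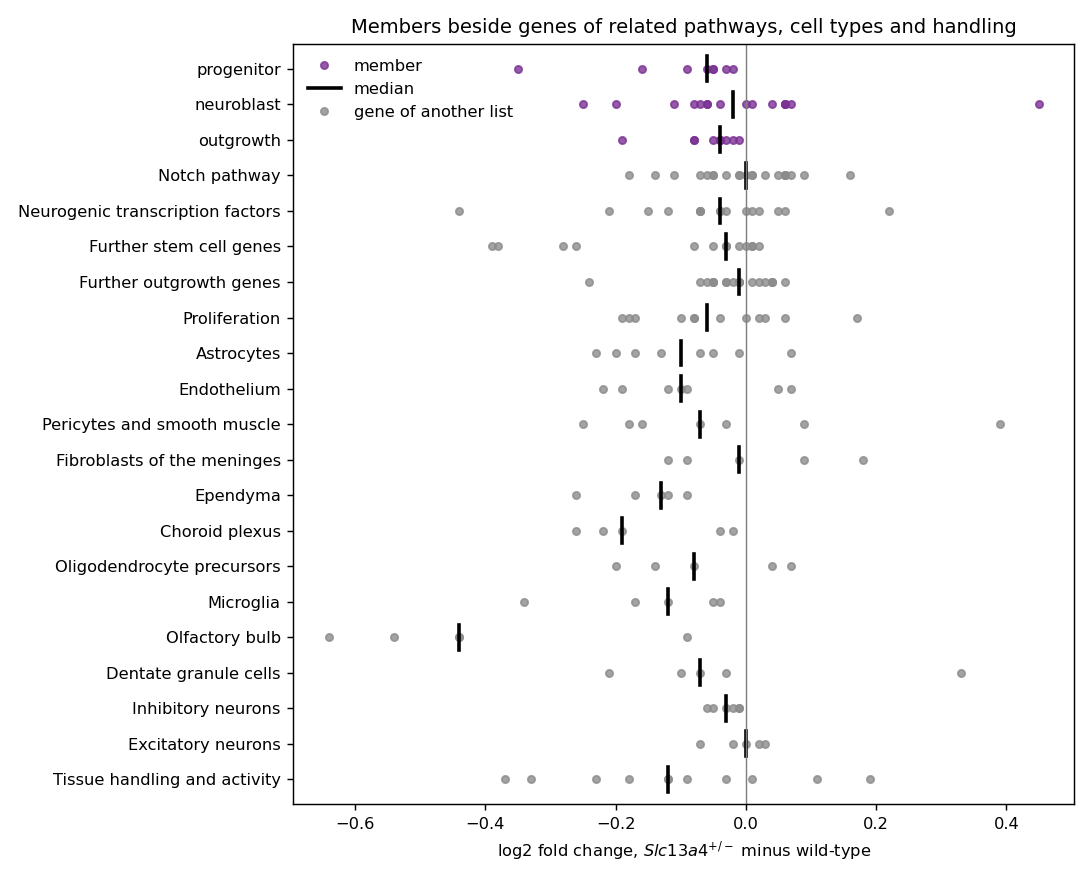
The log2 fold change, *Slc13a4*+/- minus wild-type by edgeR, of each member (purple) by class and of the genes of other pathways, cell types and tissue handling (grey), with 1 point a gene and the median of each list as a black line. The member medians of -0.06, -0.02 and -0.04 lie closer to 0 than those of most marker lists. These include the astrocyte, endothelial, ependymal, choroid plexus, microglial, tissue handling and olfactory bulb lists. The medians of the Notch pathway (0.00), further outgrowth genes (-0.01), meningeal fibroblasts (-0.01) and excitatory neurons (0.00) lie nearer 0 than the member medians.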

How the data were processed

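RNA from the whole forebrain of 6 mice was sequenced as stranded libraries depleted of rRNA. The authors quantified transcripts with Salmon (1.2.0) and deposited, for each of 117135 transcripts, estimated counts (expected counts), TPM values and the effective length. The deposited TPM values are scaled by transcript length. No source used here states which transcript index was used.

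Transcripts were matched without version numbers to GENCODE M21 (GRCm38), which placed 115973 in 35523 genes. In no mouse did the 1162 unmatched ones exceed 0.645% of counts, and they were not used. Counts were summed per gene and rounded. The totals per mouse were 60340337 to 80410582; the least counted member had 41 counts in a mouse. The quasi-likelihood test of edgeR (4.0.16, run in R 4.3.3), after filterByExpr and TMM normalization covered 17096 genes. The Wald test of DESeq2 (1.42.0) with average transcript lengths as offsets, the import that the study's methods imply, gave 17659 genes an adjusted p. Benjamini-Hochberg adjustment ran over all genes tested, with a threshold of 0.1. Standard errors of edgeR were formed from its F statistic. Both tools, DESeq2 without length offsets, were also run on simulated counts, and the outcome is not reported here. Python 3.11.15 was used for joins, motif search and plots.

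All 34 members are accounted for. Full statistics are given for those with an unadjusted p under 0.05 in edgeR or an adjusted p under 0.1 in DESeq2, and for up to 2 further members of each class with the highest TPM. *Igfbpl1*, *Cd24a*, *Dcx*, *Hes1*, *Dlx2*, *Sox3*, *Rbpj* and *Hspa5* were chosen after their values were seen. The members and lists were chosen with earlier results of these data known. No set test was run. Alternatives were other tools, offsets and filters, leaving out retained-intron transcripts, and leaving out each mouse. The paper states that the wild-type mice were littermates of the *Slc13a4*+/- mice. The labels give animal numbers but no litter, so no pairing was used.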

Additional observations from a re-analysis of the deposited data

How the results depend on the processing

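The number of genes called changed with the tool, the length offsets, the filter and the mice used. Genes called at an adjusted p under 0.1 numbered 1 in edgeR, 86 in DESeq2 with length offsets, 55 in DESeq2 without them, 0 in edgeR with offsets and 147 in edgeR without a filter, and 1 to 720 when 1 mouse was left out (720 in DESeq2 and 223 in edgeR without Nas2Del_WT_1026). Members called numbered 0 in edgeR, 2 in DESeq2 with or without offsets, 1 in edgeR without a filter (*Nes*, adjusted p 0.00893), and 0 to 4 with 1 mouse left out. Members at an unadjusted p under 0.05 numbered 4, and 2 to 7 with 1 mouse left out. *Slc13a4* passed 0.1 in DESeq2 with offsets (-0.63), in DESeq2 without them (-0.67), in edgeR without a filter (-0.67) and in some fits without 1 mouse, over which it ran between -0.76 and -0.56. The cause of these differences was not tested.

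Over 18 settings 18 members kept their sign and 16 did not. In edgeR after filterByExpr, with all mice, retained-intron transcripts kept and no length offsets, no log2 fold change of these 16 exceeded 0.08 in size. Larger values were found in edgeR when 1 mouse was left out, such as 0.23 for *Dcx* without Nas2Del_WT_1026. *Neurog2* was not tested under the filter of 1 CPM in 3 mice, which it did not pass, so its sign rests on the other settings. With length offsets the sign turned for *Pax6* (0.03 in DESeq2, 0.04 in edgeR), *Prom1* (0.01, 0.01) and *Dpysl5* (0.02, 0.03). Leaving out 1 mouse gave log2 fold changes of -0.09 to 0.08 for *Pax6*, -0.07 to 0.06 for *Prom1*, -0.12 to 0.10 for *Dpysl5*, -0.06 to 0.04 for *Msi1*, -0.05 to 0.15 for *Dlx5*, -0.02 to 0.08 for *Elavl4*, -0.06 to 0.01 for *Stmn2*, -0.05 to 0.03 for *Ncam1*, -0.12 to 0.07 for *Draxin*, -0.17 to 0.13 for *Hes1*, -0.14 to 0.11 for *Dlx1*, -0.05 to 0.08 for *Hes6*, -0.04 to 0.23 for *Dcx*, -0.09 to 0.01 for *Gap43*, -0.01 to 0.14 for *Insm1* and -0.09 to 0.01 for *Elavl3*. Over the settings run for them (all but DESeq2 without 1 mouse), the class medians were -0.10 to -0.04 for the progenitor, -0.04 to 0.01 for the neuroblast and -0.07 to -0.02 for the outgrowth members. No paired analysis was possible because the labels do not name the litter of each mouse. With 3 mice per genotype at 1 age, differences of the size seen in most members lie within their standard errors.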
